A study of Mus musculus with 6 samples.

Results

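The EGF family genes examined here are 7 ligands, Hbegf, Ereg, Areg, Tgfa, Btc, Epgn and Nrg1, and the receptor gene Egfr. These 8 genes were chosen by symbol in the mouse annotation, out of 49328 genes listed in the deposited table, and all 8 were listed. They were chosen with the comparison of treated and control cells already known, so their differences between the groups are given as a description, with no p-value. The libraries were made from total RNA of cultured cells labelled as mesenchymal stromal cells (MSCs, the fibroblast-like marrow cells that stick to plastic). Cells treated with the compound labelled R, at 0.5 um as the labels write the unit, gave 3 libraries, and cells treated with its vehicle, DMSO, gave 3. All 6 came from CB6F1 mice with acute graft-versus-host disease (aGVHD, an attack of transplanted donor immune cells on the recipient's tissues), and the marrow was digested without fractionation before culture in high-glucose DMEM with serum. What R is, how long it was given, the age of the mice and whether replicates came from separate animals are all not given in the labels, so the spread between libraries may be technical.

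Ligands of the EGF family are made as membrane-anchored precursors, and metalloproteases such as ADAM17 cut them loose from the cell surface. A released ligand binds a receptor of the ERBB family, 2 receptors pair, and the pair signals through adaptors to the RAS and ERK kinases. In stromal cells this signalling is known for its effects on proliferation, migration and survival. HB-EGF, epiregulin and betacellulin bind EGFR and ERBB4, amphiregulin, TGF-alpha and epigen bind EGFR, and neuregulin-1 binds ERBB3 and ERBB4.

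What makes these proteins a family is the EGF-like motif, a stretch held together by 6 cysteines. It is shown for Ereg, for the chromosome 5 neighbours of Ereg on either side, Epgn and Areg, and for Nrg1, whose cysteine spacing differs. The motif of Hbegf was not examined. The sequences are coding sequence of the GENCODE M21 transcripts (GRCm38), with the 6 cysteine codons in capitals.
Ereg: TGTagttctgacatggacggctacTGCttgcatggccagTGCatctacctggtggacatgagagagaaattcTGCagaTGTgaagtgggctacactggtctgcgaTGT
Areg: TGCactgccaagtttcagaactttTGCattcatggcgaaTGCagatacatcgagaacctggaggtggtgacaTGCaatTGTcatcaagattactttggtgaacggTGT
Epgn: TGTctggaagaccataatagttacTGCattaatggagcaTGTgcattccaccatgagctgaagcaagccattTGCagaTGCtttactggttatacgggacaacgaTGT
Nrg1: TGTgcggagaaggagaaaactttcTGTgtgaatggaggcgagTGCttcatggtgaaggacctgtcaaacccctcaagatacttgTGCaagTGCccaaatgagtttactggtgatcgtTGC

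In Ereg, Areg and Epgn the motif is 108 bases long, with 7, 4, 10, 1 and 8 codons between successive cysteine codons, and Btc and Tgfa have the same spacing. In Nrg1 it is 120 bases long, with 5 codons in the second gap and 13 in the third. Base by base, the motif of Ereg matches that of Areg at 58 of the 108 positions and that of Epgn at 54. In Ereg it runs from the third exon into the fourth (chr5:91088496-91089111, plus strand), and the same is true of Areg (chr5:91143614-91144364, plus strand) and Epgn (chr5:91031152-91032237, plus strand). In Nrg1 it runs from exon 2 into exon 3 of the longest matching transcript (chr8:31837698-31849398, minus strand).

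The unit is FPKM, fragments scaled to gene length and library size, as the authors deposited it, so levels of different genes can be set side by side per length. The depth, estimated from the steps of the low values, was 17980000 to 21750000 reads in the R libraries and 17070000 to 20010000 in the vehicle libraries. Macrophage transcripts were abundant in both groups. The summed level of 10 macrophage markers was 11129 to 13747 FPKM in R, against 12953 to 17073 FPKM in vehicle. Of the 10, 3 fell (limma, adjusted p under the threshold of 0.05), where 4.43% of all tested genes fell. The summed level of 10 stromal markers was 624 to 1020 FPKM in R, against 333 to 687 FPKM in vehicle. In every library this was far below the sum of the macrophage markers. Of the 7 stromal markers tested, 0 were past the threshold by limma. At an unadjusted p under 0.05 there were 3, beside 2846 of all 11862 tested genes. Most of the sum was Col1a1 (mean 479 FPKM in R, 214 FPKM in vehicle) and Col1a2 (217 and 149 FPKM). Means were also higher in R for Pdgfrb, Prrx1 and Nt5e, and lower for Pdgfra, Thy1, Eng and Cxcl12. Lepr, a marker of marrow stroma, was at 0.102 to 0.130 FPKM in R, against 0.0334 to 0.220 FPKM in vehicle. The 6 smooth muscle and pericyte markers summed to 424 to 755 FPKM in R, against 134 to 420 FPKM in vehicle. Most of this was Acta2 (581 ± 162 FPKM in R, 248 ± 143 FPKM in vehicle), which did not pass (limma adjusted p = 0.10). Of the 5 tested, 2 rose, where 2.39% of all tested genes did. They were Tagln (mean 2.48 FPKM in R, 0.813 FPKM in vehicle, limma adjusted p = 0.046) and Cspg4 (3.02 and 0.362 FPKM, limma adjusted p = 0.047). Tagln reached 1 FPKM in vehicle replicate 2 and in no other vehicle library. Cspg4 had 5.50, 1.74 and 1.82 FPKM in R replicates 1, 2 and 3. Cspg4 was below 1 FPKM in each vehicle library, so only the R libraries brought it into the test. Markers of epithelium, a major source of EGF ligands elsewhere, summed to 1.38 to 2.51 FPKM in R, against 0.523 to 1.83 FPKM in vehicle, with Epcam, Krt5, Krt14 and Krt18 at 0 in all 6 libraries. The markers of endothelium, T and NK cells, ILC2, mast cells and B cells summed, list by list, to at most 15.5 FPKM in any library. Of their tested genes 1 passed, Nkg7, a granule gene of NK and cytotoxic T cells. Nkg7 fell, with 0.142 ± 0.127 FPKM in R and 2.22 ± 0.770 FPKM in vehicle (SD, n = 3 each, log2 change -1.47, SE 0.20, limma adjusted p = 0.0079). It was below 1 FPKM in each R library, so only the vehicle libraries brought it into the test. Cd4, the other tested T and NK marker, went the other way without passing, with 2.42 ± 1.59 FPKM in R and 1.06 ± 0.181 FPKM in vehicle (log2 change 0.64, SE 0.29, limma adjusted p = 0.24). In such bulk samples a change in the number of cells of a type and a change in RNA per cell cannot be told apart, and the part of these cell types in the results below was not tested. Vehicle replicate 3 stood nearest to the R libraries (Pearson's r across genes 0.961 to 0.963, against 0.936 to 0.941 for vehicle replicate 1 and 0.955 to 0.956 for vehicle replicate 2), and results that turn on it are given with and without it.

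Among the ligands, Hbegf was by far the most abundant and Ereg came second, and both were higher in R. Hbegf, on chromosome 18, encodes heparin-binding EGF-like growth factor, a mitogen of fibroblasts and smooth muscle cells. It had 30.0, 28.6 and 20.6 FPKM in R replicates 1, 2 and 3, against 7.70, 8.12 and 10.9 FPKM in vehicle replicates 1, 2 and 3. The groups did not overlap: the lowest R library lay well above the highest vehicle library. The mean was 26.4 ± 5.08 FPKM in R and 8.90 ± 1.73 FPKM in vehicle (SD, n = 3 each), a ratio of 2.96, and the log2 change on the log2(FPKM + 1) scale was 1.46 with an SE of 0.18. Among the 11862 genes that were tested, Hbegf ranked between 1857 and 2651 from the top in the R libraries and between 4693 and 5928 in the vehicle libraries.

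Ereg encodes epiregulin, an inflammation-linked ligand (chromosome 5, 91074622 to 91093646, plus strand). It had 5.91, 7.42 and 10.7 FPKM in R replicates 1, 2 and 3, against 1.90, 1.54 and 3.85 FPKM in vehicle replicates 1, 2 and 3. These values stand for an estimated 531, 551 and 797 reads in R and 134, 119 and 318 reads in vehicle. Again the groups did not overlap, and vehicle replicate 3 was the highest of its group, as it was for Hbegf. The mean was 8.01 ± 2.44 FPKM in R and 2.43 ± 1.24 FPKM in vehicle (SD, n = 3 each), a ratio of 3.29, or 4.65 without vehicle replicate 3. The log2 change was 1.42 with an SE of 0.28. An antisense gene, Gm19610, shares 141 exon bases with Ereg, and since no source used here states the strandedness of the libraries, reads there cannot be assigned to either gene. Gm19610 itself had 0.225, 1.77 and 1.22 FPKM in R, against 0.144, 0.131 and 0.612 FPKM in vehicle.

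Hbegf and Ereg were the members high enough to be tested in the fit over all genes, and 2 of these 2 were past its threshold on the higher side. That side held 2.39% of all tested genes. Since the members were chosen with this comparison known, nothing is read from the count. Ereg was on the other side of the threshold in 5 of 15 alternative fits, which were those without a filter on low values, without R replicate 2, without R replicate 3, without vehicle replicate 1 and without vehicle replicate 2.

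**Figure D1:**
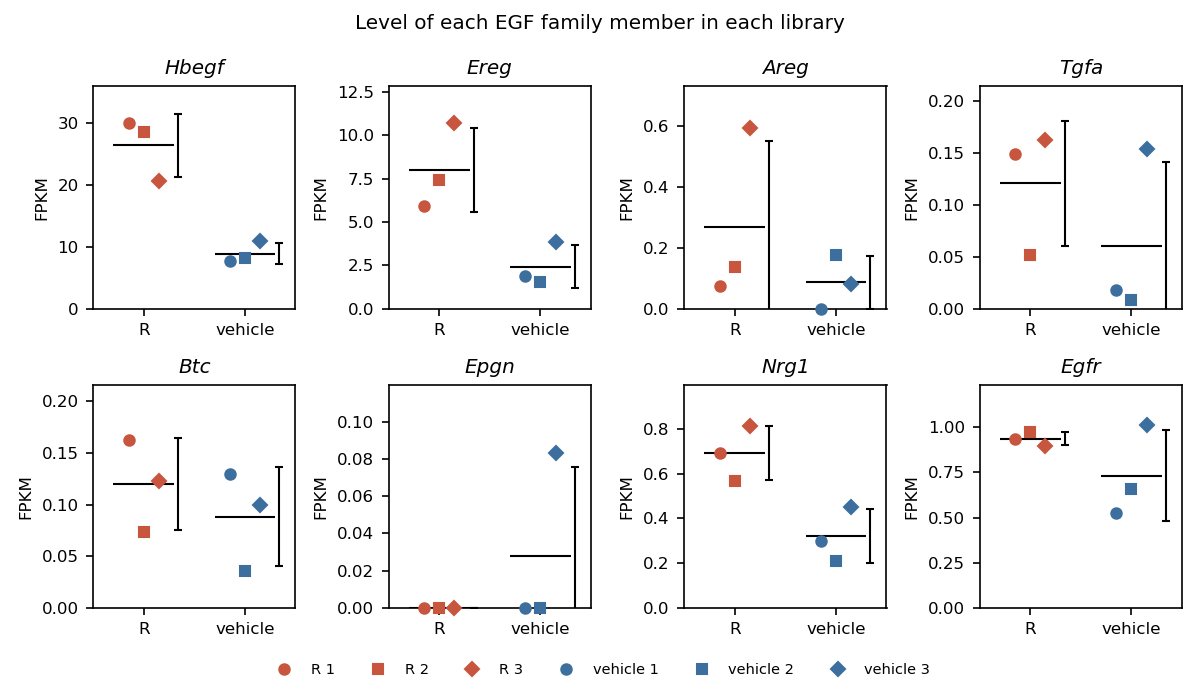
FPKM of each of the 8 genes in each library, with R on the left and vehicle on the right of every panel; lines are means, bars are SD (n = 3, not drawn below 0), marker shapes are replicate numbers, and each panel has its own scale. Hbegf, Ereg and Nrg1 show no overlap between the groups, whereas vehicle replicate 3 lies among the R libraries for Tgfa and above them for Egfr.

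Nrg1 encodes neuregulin-1, the ligand of ERBB3 and ERBB4, and spans a long locus on chromosome 8 (31814551 to 32884029, minus strand). It stayed below 1 FPKM throughout, with 0.693, 0.569 and 0.813 FPKM in R replicates 1, 2 and 3 and 0.30, 0.211 and 0.449 FPKM in vehicle replicates 1, 2 and 3. At its summed exon length these are 156, 106 and 152 reads in R and 53, 41 and 93 reads in vehicle. The R libraries all lay above the vehicle libraries, and the ratio of the means was 2.16. Gm26578, a non-coding gene on the opposite strand, shares 482 exon bases with Nrg1 and had at most 0.109 FPKM in any library. Nrg1 did not reach the minimum level for the test.

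The other 4 ligands were close to the limit of detection. Areg, amphiregulin, a ligand known for its part in tissue repair, had 2, 3 and 13 reads in R replicates 1, 2 and 3 (0.0757, 0.137 and 0.592 FPKM) and 0, 4 and 2 reads in vehicle replicates 1, 2 and 3 (0, 0.176 and 0.0823 FPKM). The count of 0 in vehicle replicate 1 allows up to 0.145 FPKM at 3 reads. The groups overlapped, and R replicate 3 alone stood above the rest. Tgfa, TGF-alpha, had 21, 6 and 19 reads in R, against 2, 1 and 20 reads in vehicle. Its vehicle replicate 3 was among the R values, while the other vehicle libraries were below all of them. Btc, betacellulin, had 16, 6 and 10 reads in R and 10, 3 and 9 reads in vehicle, and the groups overlapped. Epgn, epigen, had 0 reads in all R libraries and in vehicle replicates 1 and 2, which allows up to 0.0763 to 0.0973 FPKM depending on the library, and 3 reads in vehicle replicate 3. For Areg, Btc and Epgn the groups overlapped and no test was run, so at these read numbers no difference is called. Read numbers cover counting error only.

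Egfr, the receptor of all these ligands except neuregulin-1 (chromosome 11, 16752203 to 16918158, plus strand), was low in both groups. It had 0.938, 0.972 and 0.899 FPKM in R replicates 1, 2 and 3, which is 231, 198 and 184 reads, against 0.528, 0.660 and 1.01 FPKM in vehicle replicates 1, 2 and 3, which is 102, 140 and 229 reads. The R libraries lay close together, and the vehicle libraries spread to both sides, with vehicle replicate 3 the highest of all 6. The mean was 0.936 ± 0.0366 FPKM in R and 0.733 ± 0.250 FPKM in vehicle (SD, n = 3 each), a ratio of 1.28, or 1.58 without vehicle replicate 3. The difference between the means was smaller than the SD of the vehicle libraries.

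For 3 of the 8 members, Hbegf, Ereg and Nrg1, all R libraries lay above all vehicle libraries, and for 0 of 8 below, where 9.21% of the genes detected in at least 1 library were separated on the higher side. Without vehicle replicate 3 the members separated on that side were 5, with Tgfa and Egfr added, where 14.4% of detected genes were. Leaving out a library can only add separated genes. Nothing is read from these counts either, as the members were chosen with the comparison known.

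Hbegf and Ereg together set the total of the ligand transcripts. The summed level of the 7 ligands was 37.0, 36.8 and 32.9 FPKM in R replicates 1, 2 and 3 and 10.1, 10.1 and 15.6 FPKM in vehicle replicates 1, 2 and 3. Hbegf made up 81.1%, 77.6% and 62.4% of it in R, against 76.6%, 80.5% and 69.8% in vehicle. Ereg made up 16%, 20.1% and 32.4% in R and 18.9%, 15.3% and 24.7% in vehicle. The shares overlapped between the groups although the totals did not. Within the R group the order of the libraries was opposite for the 2 ligands: R replicate 3 had the lowest Hbegf and the highest Ereg, and also the highest Areg and Nrg1.

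**Figure D2:**
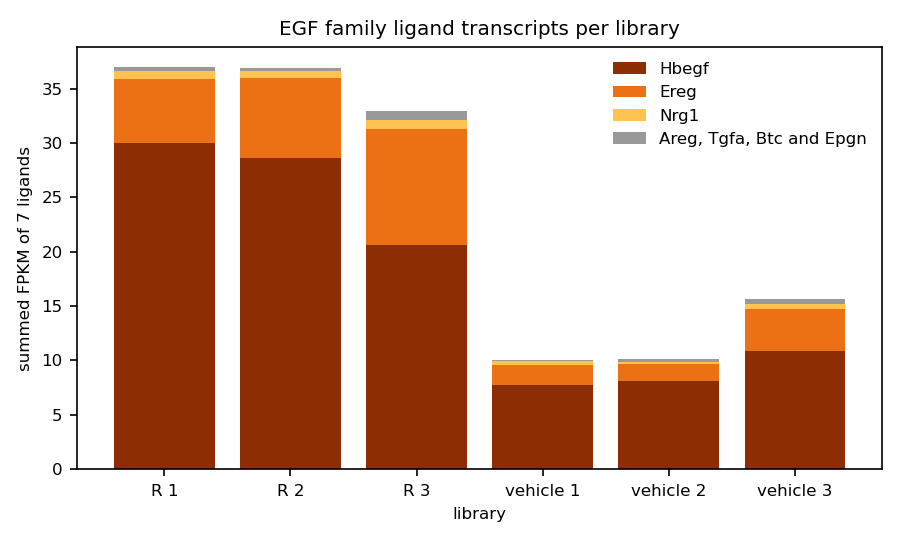
Summed FPKM of the 7 ligands in each library, R libraries on the left and vehicle libraries on the right, stacked by gene. The totals are 32.9 to 37.0 FPKM in R, against 10.1 to 15.6 FPKM in vehicle, and Hbegf is the largest part of each bar.

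In order of level, the members stood as Hbegf, Ereg and then Egfr and Nrg1 in every library. Egfr lay above Nrg1 in each R library and each vehicle library. Areg, Tgfa and Btc followed and did not differ beyond their spread. Epgn was last in the R libraries and in vehicle replicate 2, tied with Areg at 0 in vehicle replicate 1, and in vehicle replicate 3 stood at 0.0830 FPKM beside 0.0823 FPKM of Areg.

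Ereg, Areg, Epgn and Btc lie within 375.5 kb of chromosome 5 (91027464 to 91402994), and position did not go with level. Ereg stood at 5.91 to 10.7 FPKM in R, against 1.54 to 3.85 FPKM in vehicle, while its neighbours Epgn and Areg, with starts 47.2 kb before and 65.0 kb after that of Ereg, were at or near 0. Mthfd2l, a mitochondrial folate enzyme gene upstream of Epgn, had 0.870 to 1.29 FPKM in R, against 0.787 to 1.13 FPKM in vehicle (log2 change 0.08, SE 0.14, limma adjusted p = 0.78). Upstream of Mthfd2l, outside that stretch, lie CXC chemokine genes, several of which attract neutrophils. Of the 4 tested, Cxcl1 fell, with 6.70 ± 0.576 FPKM in R and 15.6 ± 2.53 FPKM in vehicle (SD, n = 3 each; log2 change -1.10, SE 0.13, limma adjusted p = 0.0038). Cxcl2, Cxcl5 and Pf4 did not pass (log2 changes -0.46, -2.50 and -0.59, limma adjusted p = 0.13, 0.0501 and 0.35). Cxcl5 had at most 0.119 FPKM in R, against 11.2, 1.12 and 7.56 FPKM in vehicle replicates 1, 2 and 3. Only the vehicle libraries thus brought Cxcl5 into the test. These neighbours were chosen by position, as the protein-coding genes within 500 kb of Ereg, after values had been seen.

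**Figure D3:**
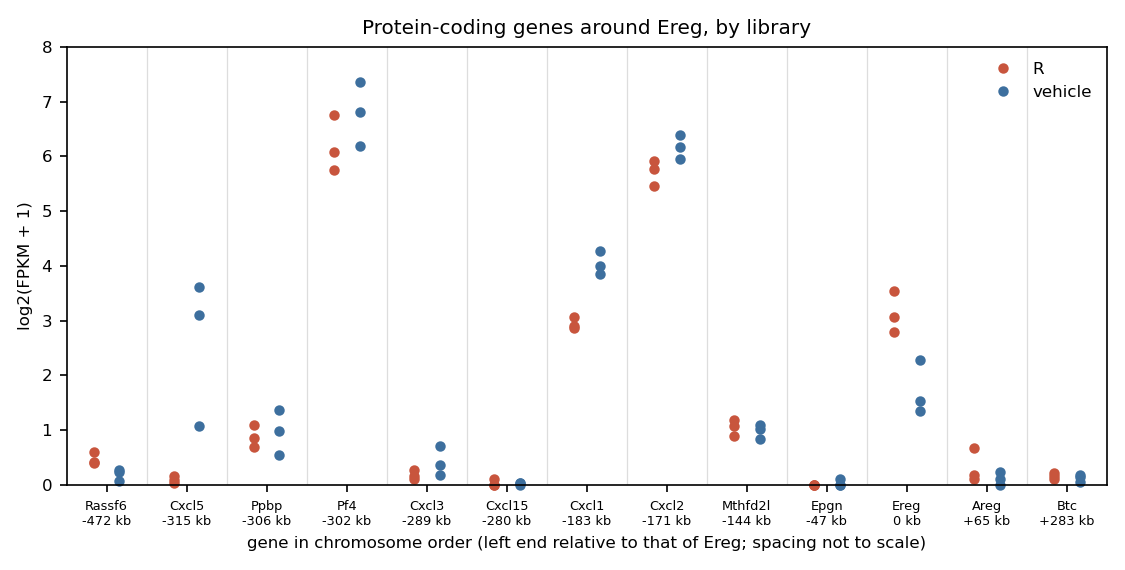
log2(FPKM + 1) in each library for the protein-coding genes within 500 kb of Ereg on chromosome 5, in chromosome order, R to the left and vehicle to the right for each gene; numbers under the names are distances from the left end of Ereg. Ereg is higher in R, Cxcl1 is lower in R, and Epgn, Areg and Btc lie near 0 in both groups.

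The pathway around the members was followed through 81 further genes in 8 lists, of which 80 were in the table and 75 were high enough to be tested. Of the 75, 4 rose (5.33%), 1 fell (1.33%) and 70 did not pass, where 2.39% of all tested genes rose and 4.43% fell. The median log2 change was -0.01 over the list and -0.0037 over all tested genes, with 35 of the 75 above 0 and 40 below. At an unadjusted p under 0.05 there were 26 of the 75, beside 2846 of all 11862 tested genes. The calls depended on single libraries. Without R replicates 1, 2 and 3, 2, 1 and 0 of the 75 rose, and without vehicle replicates 1, 2 and 3, 2, 2 and 5 did. The fall was still called without vehicle replicate 3 and not without any other library, so that 0 of the 75 passed by limma without R replicate 3, where 27 had an unadjusted p under 0.05.

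Among the other ligands 0 of 4 reached the minimum for the test. Nrg2, a further neuregulin, had 0.373, 0.289 and 0.359 FPKM in R, against 0.989, 1.005 and 0.373 FPKM in vehicle, so vehicle replicate 3 again lay among the R libraries. Nrg4 had 0.183 to 0.228 FPKM in R, against 0.241 to 0.272 FPKM in vehicle, Egf 0.0245 to 0.0693 FPKM in R, against 0.0576 to 0.114 FPKM in vehicle, and Nrg3 was listed at 0 throughout. The other receptors were Erbb2, which binds no ligand of its own and pairs with the rest, Erbb3, which has little kinase activity of its own, and Erbb4. Erbb2 had 3.88, 4.07 and 4.46 FPKM in R, against 2.45, 3.17 and 3.48 FPKM in vehicle, and did not pass (log2 change 0.36, SE 0.12, limma adjusted p = 0.14). Per length it stood above Egfr and Erbb3 in each of the 6 libraries. Erbb3 had 2.78, 0.952 and 1.26 FPKM in R, against 1.76, 1.38 and 1.05 FPKM in vehicle (log2 change 0.10, SE 0.26, limma adjusted p = 0.86). It was above Egfr in R replicates 1 and 3 and in each vehicle library, and just below it in R replicate 2. Erbb4 was at 0 in all libraries but vehicle replicate 1, where it was at 0.00474 FPKM.

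Of the 12 genes for the processing of ligands, 1 fell. Rhbdf2, which encodes iRhom2, the partner that carries ADAM17 to the cell surface and is needed for its activity in myeloid cells, had 10.1 ± 0.769 FPKM in R and 16.7 ± 2.68 FPKM in vehicle (SD, n = 3 each; log2 change -0.66, SE 0.12, limma adjusted p = 0.027). Its values were 10.99, 9.49 and 9.95 FPKM in R, against 19.6, 15.9 and 14.4 FPKM in vehicle, with no overlap. Its call held without vehicle replicate 3 and ended without each other library (limma adjusted p up to 0.082). Adam17 itself had 28.3 ± 3.65 FPKM in R and 38.5 ± 4.46 FPKM in vehicle and did not pass (log2 change -0.43, SE 0.13, limma adjusted p = 0.089). Rhbdf1, the gene of the related iRhom1, had 11.6 ± 1.21 FPKM in R and 6.91 ± 1.81 FPKM in vehicle and did not pass either (log2 change 0.69, SE 0.18, limma adjusted p = 0.066). Adam17 and Rhbdf1 were picked out after their values were seen.

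Of 3 tested partners of HB-EGF, 1 rose. Cd9, a tetraspanin that binds the membrane form of HB-EGF, had 157, 137 and 145 FPKM in R, against 100.4, 110.8 and 109.9 FPKM in vehicle. The groups did not overlap, and the log2 change was 0.45 (SE 0.09, limma adjusted p = 0.034). The call of Cd9 held without R replicate 2 and ended without each other library (limma adjusted p up to 0.15). It also ended with quantile normalization and with a replicate block (limma adjusted p = 0.058 and 0.075).

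Of 12 receptor-proximal adaptors 0 passed by limma over all genes. An unadjusted p under 0.05 was found for 3, beside 2846 of all 11862 tested genes. Grb2, the adaptor that links receptors to RAS activation, had 86.6 ± 5.66 FPKM in R and 98.1 ± 10.01 FPKM in vehicle (log2 change -0.17, SE 0.10, limma adjusted p = 0.36). Shc1, which docks on phosphorylated receptors, had 43.0 ± 7.02 FPKM in R and 34.0 ± 4.65 FPKM in vehicle (log2 change 0.33, SE 0.15, limma adjusted p = 0.25). Of 14 genes of the RAS and ERK cascade 1 rose. Rras2, a RAS-related GTPase, had 13.7, 17.2 and 14.9 FPKM in R, against 4.58, 7.73 and 7.99 FPKM in vehicle (log2 change 1.09, SE 0.19, limma adjusted p = 0.022). Its call ended without R replicate 2 or R replicate 3 (limma adjusted p = 0.074 and 0.063).

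Of 17 genes for receptor turnover and inhibition 1 rose. Lrig1, a membrane protein that promotes the degradation of ERBB receptors, had 4.86, 3.86 and 4.62 FPKM in R, against 2.49, 2.73 and 3.12 FPKM in vehicle (log2 change 0.53, SE 0.12, limma adjusted p = 0.043). Its call held without vehicle replicate 3 and ended without each other library (limma adjusted p up to 0.16) and with a replicate block (limma adjusted p = 0.073). Of 15 genes that ERK signalling is known to induce, 1 rose. Dusp5, a nuclear phosphatase of ERK, had 18.9, 21.7 and 21.2 FPKM in R, against 7.18, 11.3 and 11.5 FPKM in vehicle (log2 change 0.999, SE 0.17, limma adjusted p = 0.019). Its call ended without R replicate 2 or R replicate 3 (limma adjusted p = 0.068 and 0.063). Dusp6, the cytoplasmic ERK phosphatase, had 26.5 ± 3.37 FPKM in R and 27.9 ± 1.95 FPKM in vehicle (log2 change -0.08, SE 0.11, limma adjusted p = 0.74), and was named after its values were seen.

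**Figure D4:**
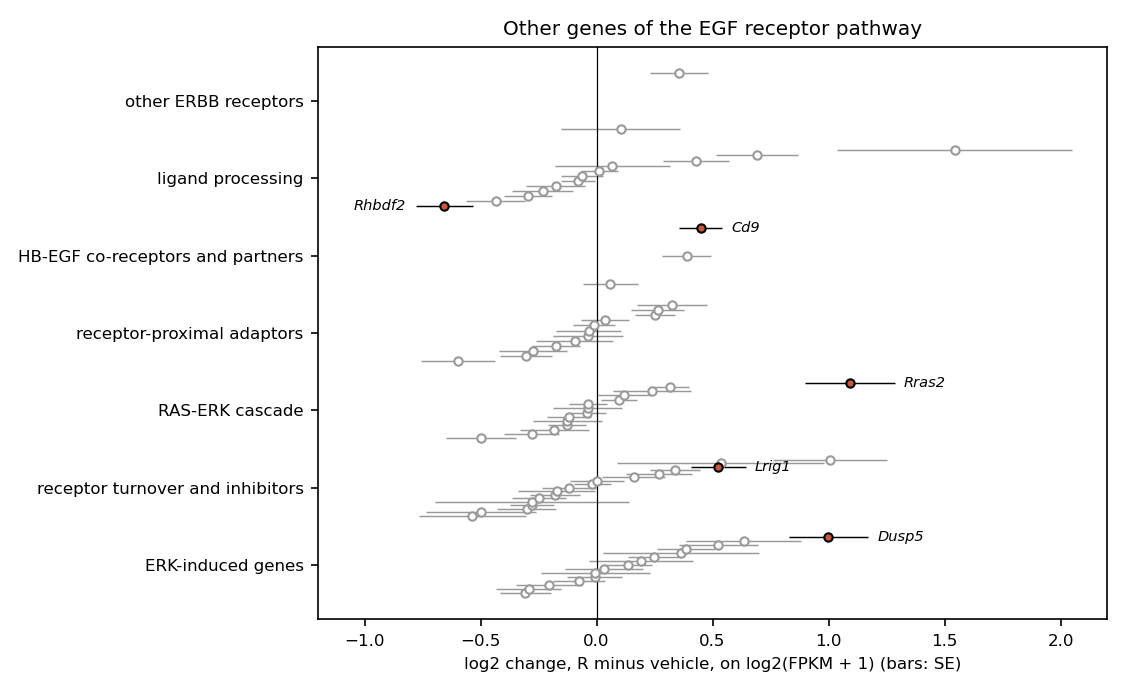
log2 change, R minus vehicle, of the 75 tested pathway genes outside the 8 members, by list, with SE bars. Filled and named points passed an adjusted p of 0.05 over all genes: Cd9, Rras2, Lrig1 and Dusp5 on the higher side and Rhbdf2 on the lower, with the other 70 as open points on both sides of 0.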

How the data were processed

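The deposited values are FPKM, which the authors computed per gene and library before they deposited 1 table. GRCm38 (mm10) and edgeR 3.18.1 are named in the submitters' processing notes, with no role given. No source used here states the aligner, counter, annotation or strandedness. Symbols and exon lengths came from GENCODE M21. The final line of the table is incomplete and was left out.

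The 11862 genes reaching 1 FPKM in 3 or more libraries entered a limma 3.58.1 fit (R 4.3.3) of log2(FPKM + 1) on 2 groups, with a trended prior variance, Benjamini-Hochberg adjustment and a threshold of 0.05. The log2 scale understates changes of low genes. The fit was also run on simulated reads with known fold changes. That simulation used the same fixed spread for all genes, so it does not cover the differences between libraries seen here. Reads were estimated as FPKM times exon length over the value of 1 read, and 98.3% to 98.4% of the values under 20.5 reads came out whole within 0.02. For Hbegf they did not, so none are given. The authors' FPKM are unaffected.

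The members and gene lists were chosen with earlier results of these data known. Named pathway genes are those past the threshold and, in lists with none, the 2 with the highest level. Tried as alternatives were other pseudocounts, filters, scalings and variance models, a replicate block and leaving out each library.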

Additional observations from a re-analysis of the deposited data

How the results depend on the processing

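The count of genes past the threshold was 809 (284 higher, 525 lower in R). It was 344 (65 higher, 279 lower) without a filter on low values, where 25575 genes were tested, and 2460 (1114 higher, 1346 lower) with library weights. Leaving out each library in turn gave 337 to 879 genes, 63 to 352 higher and 272 to 527 lower. In the pathway lists the 4 rises and 1 fall became 0 and 0 by limma without the filter (24 at an unadjusted p under 0.05) and 11 and 11 with library weights, and 0 to 5 rises and 0 to 1 fall when a library was left out. The cause was not tested. The log2 change of Hbegf was 1.36 to 1.63, and that of Ereg 1.21 to 1.70, when each library was left out. With a pseudocount of 5 they were 1.17 and 0.80, since that scale compresses low values. Erbb3 ranged from -0.18 to 0.30 and changed sign without R replicate 1 or vehicle replicate 3. Deviations of same-numbered libraries from their group means had r of 0.14, -0.01 and -0.03 for numbers 1, 2 and 3. Over all pairs of an R and a vehicle library r ran from -0.14 to 0.14. With 3 libraries per group these coefficients cannot show whether the numbers pair the samples. A replicate block gave 756 genes, 299 higher and 457 lower. The counts in the pathway lists were again 4 and 1, though the 4 rises were not all of the same genes. The calls of Cd9 and Lrig1 ended with the block (limma adjusted p = 0.075 and 0.073), and that of Cd9 also with quantile normalization (0.058). Depth limits what can be said of Areg, Btc, Epgn and Tgfa, which had at most 21 reads in any library.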

Other observations

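The genes most like Hbegf in pattern, by Pearson's r of log2(FPKM + 1) over the 6 libraries among the tested protein-coding genes, were Wsb2 (r = 0.998), Chmp5 (r = 0.997) and mt-Nd4 (r = 0.994). Wsb2, which encodes a SOCS box protein, had 39.4 ± 2.30 FPKM in R and 30.0 ± 1.30 FPKM in vehicle (SD, n = 3 each). Chmp5, a gene of the membrane-sorting ESCRT machinery, had 60.9 ± 3.17 FPKM in R and 49.1 ± 1.85 FPKM in vehicle. mt-Nd4, a mitochondrial subunit of respiratory complex I, had 999.6 ± 55.3 FPKM in R and 609 ± 62.1 FPKM in vehicle. For Ereg they were Polr3g (r = 0.998), Txnrd1 (r = 0.997) and Abcb1a (r = 0.996). Polr3g, a subunit gene of RNA polymerase III, had 2.16 ± 0.208 FPKM in R and 1.58 ± 0.195 FPKM in vehicle. Txnrd1, the cytosolic thioredoxin reductase, had 73.0 ± 3.87 FPKM in R and 56.6 ± 4.88 FPKM in vehicle. Abcb1a, a drug efflux pump, had 3.38 ± 0.907 FPKM in R and 1.46 ± 0.631 FPKM in vehicle. By limma, Wsb2 and mt-Nd4 passed (adjusted p = 0.040 and 0.017). Chmp5, Polr3g, Txnrd1 and Abcb1a did not (limma adjusted p = 0.072, 0.18, 0.067 and 0.066). The 6 libraries are 2 groups of 3, so these coefficients include the difference between the groups. They are also the highest among all tested protein-coding genes, so values near 1 follow in part from that choice.

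Further pathway genes had separated groups in either direction without passing the threshold, and 4 of them are given as examples, chosen after their values were seen: Spry4 and Timp3 on the higher side and Eps8 and Rps6ka3 on the lower. Spry4, an inhibitor of RAS and ERK signalling, had 5.19 ± 1.21 FPKM in R and 2.13 ± 0.897 FPKM in vehicle (log2 change 1.01, SE 0.24, limma adjusted p = 0.056). Timp3, the tissue inhibitor of ADAM17, had 34.1, 55.3 and 140 FPKM in R replicates 1, 2 and 3, against 14.2, 21.0 and 32.6 FPKM in vehicle replicates 1, 2 and 3 (log2 change 1.54, SE 0.51, limma adjusted p = 0.12). Its highest R library, replicate 3, was also the one highest in Ereg. Eps8, a substrate of the EGF receptor kinase, had 0.790 ± 0.0868 FPKM in R and 1.74 ± 0.515 FPKM in vehicle (log2 change -0.60, SE 0.16, limma adjusted p = 0.072). Eps8 was below 1 FPKM in each R library, so only the vehicle libraries brought it into the test. Rps6ka3, a kinase that ERK activates, had 11.5 ± 2.37 FPKM in R and 16.6 ± 1.86 FPKM in vehicle (log2 change -0.50, SE 0.15, limma adjusted p = 0.0998).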
